A study of Mus musculus with 11 samples.

Results

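The 9 genes described here encode proteins of tetraspanin membrane domains and of extracellular vesicle release: the tetraspanins Cd9, Cd63, Cd81, Cd82 and Cd151, the sphingomyelinase Smpd3, the adaptor syntenin (Sdcbp) and the small GTPases Rab27a and Rab27b. They were chosen by gene name, with earlier results of these data known, and all 9 were present in both deposited tables, which share 18712 genes. RNA had been sequenced from untreated primary mesenchymal stromal cells from the marrow of mice, which adhere to plastic and are precursors of bone, cartilage and fat. Of the 11 libraries, 3 carried an ANXA2 knockout, 4 an ANXA5 knockout and 4 were wild type, all on the C57/BL6 strain. The labels name neither the deleted part of each gene nor the age of the animals, and they give neither the sex of the animals nor whether libraries of a group came from separate ones. P-values thus refer to the spread among these libraries. Xist, the RNA of the inactive X chromosome of female cells, ran from 7.72 to 24.7 CPM (reads scaled to library size) in the ANXA2 knockout, from 0.072 to 58.8 in the ANXA5 knockout and from 0.037 to 76.3 in the wild type, so the libraries of the ANXA5 knockout, and those of the wild type, cannot all be repeats of 1 animal, and each of these groups mixes libraries with high and near-zero Xist.

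Extracellular vesicles are membrane particles that cells shed from the plasma membrane or release when multivesicular endosomes fuse with it. Tetraspanins span the membrane several times, gather integrins and other partners into domains, and are used as marker proteins of vesicles. Neutral sphingomyelinase 2, the product of Smpd3, makes ceramide, which helps vesicles to bud into endosomes, syntenin links syndecans to the budding machinery through ALIX, and RAB27A and RAB27B help endosomes to dock at the cell surface, as shown in human cells. Annexins bind acidic phospholipids in a calcium-dependent way and are common cargo of such vesicles, and stromal cells of the marrow are a widely used source of them. RNA levels say nothing direct about vesicle number or protein.

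The depth was 23.3 to 35.7 M reads in genes per library. Anxa2 RNA was at 324 ± 64.0 CPM (SD, n = 3) in the ANXA2 knockout, against 1139 ± 57.8 (n = 4) in the wild type, and Anxa5 RNA at 82.0 ± 2.53 CPM (n = 4) in the ANXA5 knockout, against 889 ± 67.4 (n = 4). All 11 stromal markers were present in both tables, at a sum of 21392 to 32857 CPM in the ANXA2 knockout, 21872 to 31831 in the ANXA5 knockout and 15100 to 28912 in the wild type. All 7 neutrophil markers were present too, at a sum of 9855 to 23978, 15126 to 20835 and 10768 to 19175 CPM in the same order, so blood cell RNA was part of every library. In bulk RNA, fewer cells of a type and less RNA per cell cannot be told apart. The ANXA2 knockout columns carry the numbers 1, 3 and 4, not those of the sample titles, and the libraries are called by them.

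No member passed the test in either knockout. With limma-trend and Benjamini-Hochberg adjustment, 0 of 9 members were called in the ANXA2 knockout, where 0.112% of 16123 tested genes were, and 0 of 9 in the ANXA5 knockout, where 0.0308% of 16224 were. Smpd3 was the only member in the ANXA2 knockout, and Rab27a the only one in the ANXA5 knockout, with an unadjusted limma p under 0.05, a level that 8.69% and 11.9% of all tested genes reached. edgeR, DESeq2 and limma-voom likewise called 0 of 9 in each knockout, while over all genes they called 0.13%, 0.664% and 0.112% in the ANXA2 knockout and 0.0308%, 1.71% and 0.0308% in the ANXA5 knockout. None of the 9 had an adjusted p under 0.05 in the authors' deposited table. In the ANXA2 knockout all 9 log2 fold changes lay above 0, with a median of 0.18 against 0.02 over all genes, of which 54.1% lay above 0. That count was 6 of 9 without knockout library 1. In the ANXA5 knockout 5 of 9 lay above 0, with a median of 0.05 against 0.01 and 52% of all genes. Groups without overlap were found for 1 member, Smpd3, in the ANXA2 knockout (9.19% of tested genes) and for 0 in the ANXA5 knockout (6.37%). Both comparisons use the same 4 wild type libraries.

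**Figure D1:**
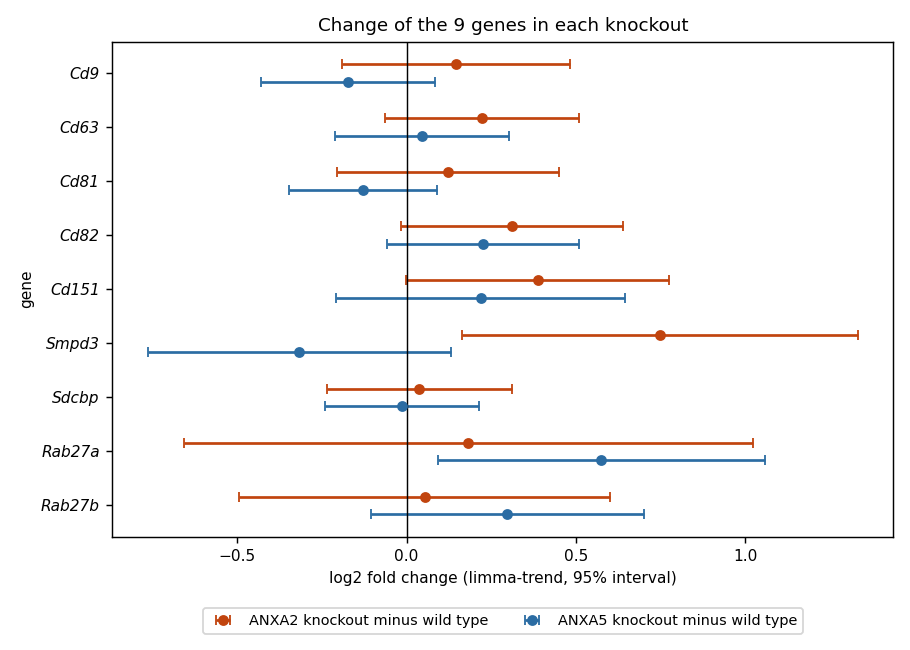
Log2 fold change (x axis) of each of the 9 genes (y axis) against the wild type, from limma-trend, with 95% intervals as bars, for the ANXA2 knockout (upper point of each pair, n = 3) and the ANXA5 knockout (lower point, n = 4), each with 4 wild type libraries. The interval lies wholly above 0 for Smpd3 in the ANXA2 knockout and for Rab27a in the ANXA5 knockout, before any adjustment for the number of genes tested.

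The genes differed widely in level. Scaled to exon length, as CPM per kilobase (RPKM), Cd9 was the highest in the wild type at 409 ± 27.3 RPKM (SD, n = 4), above 99.6% of genes, followed by Cd81 at 205 (range 191 to 230) and Cd63 at 103 ± 11.6. Sdcbp followed at 66.4 ± 2.41 RPKM. Cd82 (23.8 ± 3.67 RPKM) and Smpd3 (20.8 ± 5.99) had overlapping wild type ranges, as had Cd151 (8.62 ± 0.307) and Rab27a (7.01 ± 2.75), while Rab27b was the lowest at 0.491 ± 0.0985, above 26.2% of genes. The order was the same in the ANXA5 knockout. In the ANXA2 knockout Smpd3, at 34.2 ± 8.61 RPKM (n = 3), stood above Cd82, at 29.2 ± 2.82, again with overlapping libraries.

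**Figure D2:**
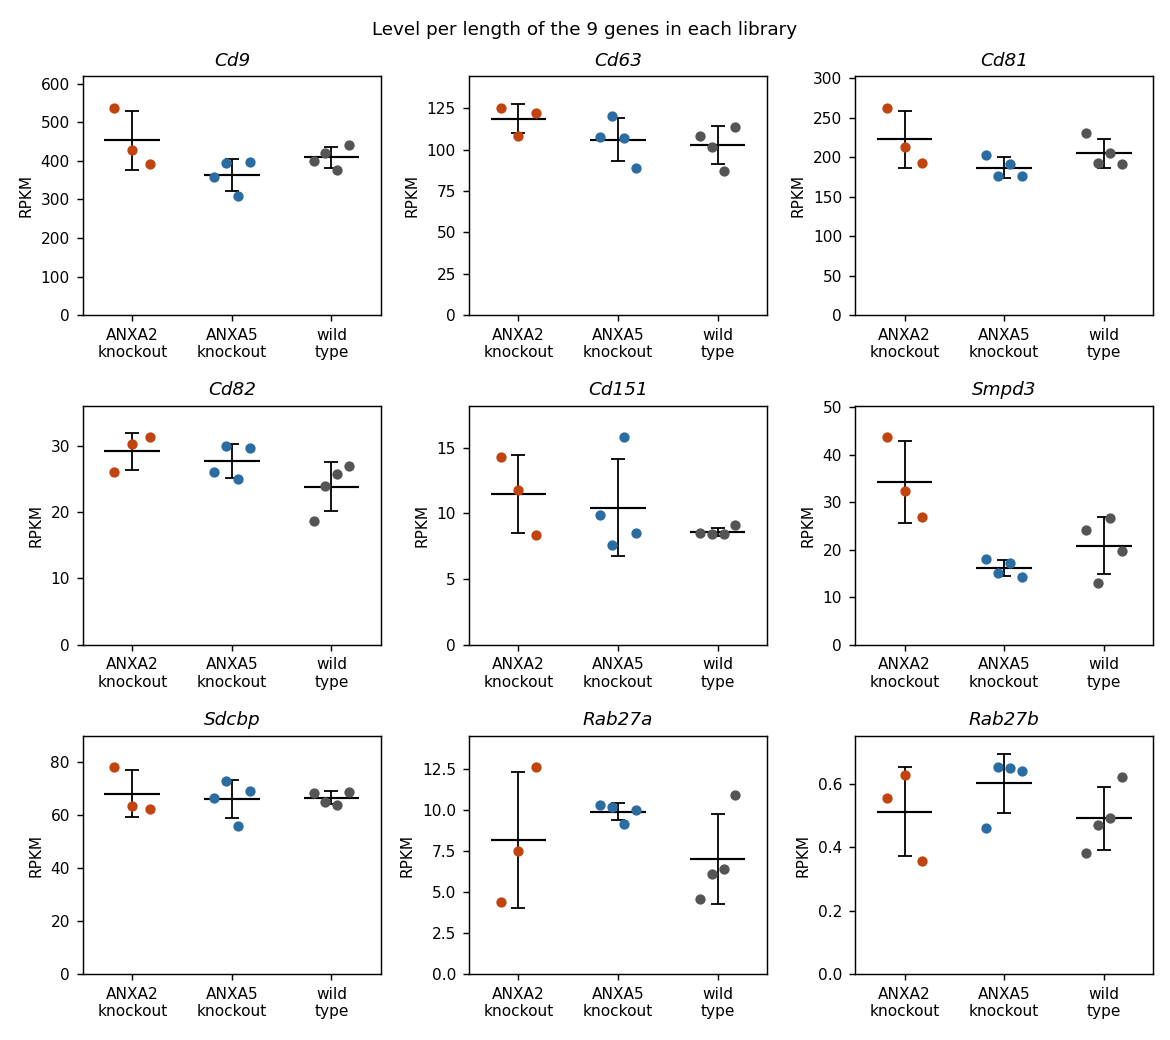
Level of each of the 9 genes in RPKM (y axis, from 0) in every library, with 1 point per library, a line at the group mean and bars of 1 SD, for the ANXA2 knockout (n = 3), the ANXA5 knockout (n = 4) and the wild type (n = 4). Smpd3 is the only panel in which the ANXA2 knockout lies wholly above both other groups, with its lowest library at 26.8 RPKM and the highest wild type library at 26.6.

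Among the tetraspanins, Cd9, the most abundant member, is an organiser of membrane domains that also acts in sperm-egg fusion. It stood at 28977, 23211 and 21045 normalised reads in ANXA2 knockout libraries 1, 3 and 4, against 21294, 22509, 20322 and 23459 in wild type libraries 1 to 4. Only library 1 lay above the wild type range. On the log2 scale the difference was 0.15 (95% interval -0.191 to 0.483, limma adjusted p = 0.768, exact permutation p = 0.4), and without that library it was 0.02. In the table of the ANXA5 knockout, scaled separately, Cd9 stood at 20965, 23067, 17960 and 23614 normalised reads in knockout libraries 1 to 4, against 23288, 24638, 22444 and 25724 in the wild type. The knockout values were mostly in the lower part of the wild type range or beneath it, and the groups overlapped (log2 -0.17, 95% interval -0.429 to 0.0835, limma adjusted p = 0.559, exact permutation p = 0.143).

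Cd81 is a widely expressed tetraspanin used as a vesicle marker. It stood at 19965, 16232 and 14570 normalised reads in ANXA2 knockout libraries 1, 3 and 4, against 17297, 14571, 15588 and 14372 in the wild type. Library 1 was again the only one above the wild type range, and the log2 fold change of 0.12 (95% interval -0.207 to 0.451, limma adjusted p = 0.809) was -0.00 without it. Cd81 in the ANXA5 knockout stood at 16793, 14551, 15756 and 14863 normalised reads, against 18917, 15948, 17216 and 15759 in the wild type, with overlapping groups and a log2 fold change of -0.13 (95% interval -0.349 to 0.0906, limma adjusted p = 0.607).

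Cd63 marks late endosomes and lysosomes as well as vesicles made from them. It stood at 12163, 10566 and 11843 normalised reads in ANXA2 knockout libraries 1, 3 and 4, against 10414, 9778, 8466 and 10939 in the wild type. Libraries 1 and 4 exceeded every wild type library and library 3 did not (log2 0.22, SE 0.126, 95% interval -0.0629 to 0.509, limma adjusted p = 0.612, exact permutation p = 0.114). Cd63 in the ANXA5 knockout stood at 11352, 12722, 11224 and 9555 normalised reads, against 11389, 10702, 9350 and 11995 in the wild type, with knockout values on both sides of the wild type mean (log2 0.05, 95% interval -0.212 to 0.302, limma adjusted p = 0.888).

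Cd82, known as a suppressor of metastasis, was above the wild type mean in all knockout libraries of both genotypes. It stood at 2057, 2405 and 2474 normalised reads in ANXA2 knockout libraries 1, 3 and 4, against 1462, 1883, 2047 and 2114 in the wild type. Knockout library 1 overlapped the wild type. On the log2 scale the difference was 0.31 (95% interval -0.0178 to 0.640, limma adjusted p = 0.578, exact permutation p = 0.114). Cd82 in the ANXA5 knockout stood at 2242, 2580, 2135 and 2606 normalised reads, against 1599, 2061, 2261 and 2318 in the wild type. Wild type library 1 was the lowest of all, and without it the ANXA5 log2 fold change of 0.22 (95% interval -0.0590 to 0.508, limma adjusted p = 0.505) was 0.11.

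Cd151, the partner of laminin-binding integrins, was even among wild type libraries and uneven in the knockouts. It stood at 1032, 853 and 601 normalised reads in ANXA2 knockout libraries 1, 3 and 4, against 606, 607, 613 and 649.5 in the wild type. Libraries 1 and 3 lay above the wild type range and library 4 just under it, so that the coefficient of variation was 26.1% in the knockout against 3.35% in the wild type. The difference was 0.39 on the log2 scale (95% interval -0.00127 to 0.775, limma adjusted p = 0.573, exact permutation p = 0.286) and 0.21 without library 1. Cd151 in the ANXA5 knockout stood at 775, 596, 1234 and 681 normalised reads, against 663, 664, 677 and 712 in the wild type. Library 3 carried most of the difference there: the log2 fold change was 0.22 (95% interval -0.209 to 0.645, limma adjusted p = 0.653) with it and 0.00 without it.

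Syntenin, encoded by Sdcbp, had the smallest spread of the 9 genes, with a highest library at 1.40 times the lowest over all 11 libraries. It stood at 14212, 11588 and 11327 normalised reads in ANXA2 knockout libraries 1, 3 and 4, against 12289, 11729, 11631 and 12360 in the wild type (log2 0.04, 95% interval -0.236 to 0.310, limma adjusted p = 0.940). Libraries 3 and 4 lay below all wild type libraries and library 1 above them. Sdcbp in the ANXA5 knockout stood at 13129, 14390, 10982 and 13927 normalised reads, against 13440, 12838, 12846 and 13553 in the wild type, again spread to both sides of the wild type (log2 -0.01, 95% interval -0.242 to 0.214, limma adjusted p = 0.963).

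Smpd3 had the largest fold change of the 9 in the ANXA2 knockout. It is known in mice for its role in bone and cartilage mineralisation besides its part in vesicle budding. It stood at 6022, 4466 and 3687 normalised reads in ANXA2 knockout libraries 1, 3 and 4, against 3296, 1770, 3673 and 2693 in wild type libraries 1 to 4. The knockout libraries all lay above the wild type ones, but library 4 exceeded wild type library 3 only slightly. The means were 4725 ± 1189 (SD, n = 3) in the knockout and 2858 ± 830 (n = 4) in the wild type, and the limma fold, taken on mean log2 values, was 1.68 (log2 0.75, SE 0.258, 95% interval 0.162 to 1.33). The unadjusted limma p was 0.0180 and the adjusted p 0.524, and the exact permutation test gave 0.0571, the smallest p that 3 against 4 libraries allow. Leaving out each library in turn gave log2 fold changes of 0.53 to 0.91.

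In the ANXA5 knockout Smpd3 stood at 2718, 2279, 2561 and 2190 normalised reads, against 3605, 1937, 4056 and 2953 in the wild type. All knockout libraries lay within the wild type range, and the log2 fold change of -0.32 (SE 0.200, 95% interval -0.764 to 0.130, limma adjusted p = 0.543, exact permutation p = 0.257) was -0.53 without wild type library 2. It was -0.18 when wild type library 3 was left out instead.

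The 2 knockouts were also compared directly, with edgeR on the recovered reads of all 11 libraries. Smpd3 stood at 228, 169 and 140.1 CPM in ANXA2 knockout libraries 1, 3 and 4, against 94.7, 79.4, 89.8 and 75.0 in ANXA5 knockout libraries 1 to 4. The groups did not overlap, as in 12.7% of tested genes. The mean was 179 ± 45.0 CPM (SD, n = 3) in the ANXA2 knockout and 84.7 ± 9.09 (n = 4) in the ANXA5 knockout, with the wild type between at 109 ± 31.4 (n = 4). The edgeR log2 difference was 1.08, a fold of 2.11, with an unadjusted p of 0.00035 and an adjusted p of 0.0813, which misses the threshold, and the exact permutation p was 0.0571. limma-voom gave 1.06 (95% interval 0.560 to 1.55, adjusted p = 0.102). DESeq2 called it (log2 1.09, adjusted p = 0.00114), as did edgeR on the knockout libraries alone (1.07, adjusted p = 0.0408). Across all its alternatives the adjusted p ran between 0.00114 and 0.373, the highest without ANXA2 knockout library 1.

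Smpd3 was also set against the lysosomal sphingomyelinase Smpd1, which makes ceramide in another compartment. The per-length ratio of Smpd3 to Smpd1 was 1.26, 1.22 and 1.12 in ANXA2 knockout libraries 1, 3 and 4, 0.685, 0.643, 0.724 and 0.617 in ANXA5 knockout libraries 1 to 4, and 0.889, 0.485, 0.944 and 0.747 in wild type libraries 1 to 4. The ANXA2 knockout was above 1 in each library and no other library reached 1. This ratio holds the same Smpd3 values as above, was chosen with them known and was not tested, so it adds no separate support. Because mineralising cells are known to express Smpd3, markers of bone and cartilage cells are given beside it. The sum of 7 osteoblast markers was 164, 201 and 125 CPM in ANXA2 knockout libraries 1, 3 and 4, 163 to 232 in the ANXA5 knockout and 109 to 169.9 in the wild type. The sum of 5 chondrocyte markers was 2833, 2309 and 1603, 1574 to 2757 and 2207 to 2502 CPM. The chondrocyte sums of the ANXA2 knockout were in the same library order as Smpd3, but those of the other groups were not. In the ANXA5 knockout, library 4 had the highest sum (2757 CPM) and the lowest Smpd3 (75.0 CPM). In the wild type, library 3 had the highest Smpd3 (139 CPM), while the highest sum (2502 CPM) was in library 1. Single chondrocyte markers differed in direction in the ANXA2 knockout, with log2 fold changes of 0.97 for Acan, 0.66 for Sox9, 0.09 for Col2a1, -0.18 for Comp and -0.37 for Matn3 (limma adjusted p between 0.471 and 0.966). Between the knockouts Sox9 had 0.81, Comp 0.11, Acan 0.01, Col2a1 -0.43 and Matn3 -0.43 (edgeR adjusted p between 0.188 and 0.991). Of the 7 osteoblast markers, 5 lay above 0 in the ANXA2 knockout against the wild type (median log2 fold change 0.33). Between the knockouts 1 of the 7 did (median -0.30). The part of these cells in the result was not tested.

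For the other members the direct comparison gave smaller differences. Of all 9, edgeR called 0, against 0.263% of 16722 tested genes, and Smpd3 and Cd9 had an unadjusted p under 0.05, as 13.9% of genes did. DESeq2 called 2.38% of genes and limma-voom 0.281%. Of the 9 differences 7 lay above 0, as did 49.3% of all genes. Cd9 stood at 1099, 877 and 799.7 CPM in the ANXA2 knockout, against 731, 804, 630.0 and 809 in the ANXA5 knockout, with overlapping groups (log2 0.31, limma-voom 95% interval 0.0153 to 0.604, edgeR adjusted p = 0.341). Cd81 had a log2 difference of 0.25 (limma-voom 95% interval -0.0312 to 0.515, edgeR adjusted p = 0.402). For Cd63, Cd82, Cd151 and Sdcbp the edgeR log2 differences were 0.04 to 0.16, for Rab27a -0.28 and for Rab27b -0.23, and the limma-voom intervals of these 6 genes all included 0. The widest of them, for Rab27a, ran from -1.07 to 0.27, so a difference of more than 1 on the log2 scale was not excluded by it.

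Rab27a, needed for the release of granules from blood cells and of pigment from melanocytes, was even in the ANXA5 knockout and uneven elsewhere. It stood at 1147, 1134, 1015 and 1136 normalised reads in ANXA5 knockout libraries 1 to 4, against 509, 678, 724 and 1217 in the wild type. The knockout libraries lay above wild type libraries 1 to 3 and below wild type library 4. The means were 1108 ± 62.0 (SD, n = 4) in the knockout and 782 ± 305 (n = 4) in the wild type, and the limma fold, taken on mean log2 values, was 1.49 (log2 0.57, SE 0.217, 95% interval 0.0913 to 1.06), with an unadjusted limma p of 0.0244, an adjusted p of 0.361 and an exact permutation p of 0.143. Without wild type library 4 the log2 fold change was 0.81 (limma adjusted p = 0.0566), and without wild type library 1 it was 0.39 (0.624).

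In the ANXA2 knockout Rab27a stood at 454, 771 and 1292 normalised reads in libraries 1, 3 and 4, against 465, 619, 656 and 1110 in the wild type. Library 1 was below and library 4 above every wild type library (log2 0.18, SE 0.371, 95% interval -0.659 to 1.02, limma adjusted p = 0.898). Rab27a lies on chromosome 9, 3.55 Mb from Anxa2 in the GRCm38 annotation.

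The level of Rab27a ran broadly with neutrophil markers from library to library, as it did with the macrophage markers given below. Summed CPM of the 7 markers were 9855, 14871 and 23978 in ANXA2 knockout libraries 1, 3 and 4, where Rab27a stood at 17.2, 29.1 and 49.1 CPM. They were 16655, 20835, 15126 and 18504 in ANXA5 knockout libraries 1 to 4, with Rab27a at 40.0, 39.5, 35.6 and 38.9 CPM, and 10768, 12930, 11511 and 19175 in wild type libraries 1 to 4, with Rab27a at 17.8, 23.7, 24.8 and 42.5 CPM. The library with the lowest sum also had the lowest Rab27a, and that with the highest sum the highest. The order failed within groups: ANXA5 knockout library 1 had the highest Rab27a of its group, and library 2 the highest sum. Wild type library 2 had a higher sum than library 3 and a lower Rab27a. With the log2 marker sum as a covariate, an alternative chosen after seeing the data, the log2 fold change of Rab27a was 0.11 in the ANXA5 knockout (limma adjusted p = 0.9996) and -0.08 in the ANXA2 knockout (limma adjusted p = 0.767). That of Smpd3 in the ANXA2 knockout was 0.85 (limma adjusted p = 0.261). Other members moved with this covariate in the ANXA5 knockout too: the log2 fold change was 0.02 for Cd82, 0.04 for Rab27b, -0.15 for Smpd3, -0.31 for Cd9, -0.01 for Cd81 and 0.38 for Cd151, none past the threshold. All ANXA5 knockout libraries had higher marker sums than wild type libraries 1 to 3. Marker sum and genotype thus largely coincided there, and the fit cannot tell them apart. Macrophage markers (8 of 8 present) summed to 2994, 3853 and 5791 CPM in ANXA2 knockout libraries 1, 3 and 4. They summed to 4526, 5079, 4054 and 4871 in ANXA5 knockout libraries 1 to 4. In wild type libraries 1 to 4 they summed to 2907, 3153, 3316 and 4397. Their order was that of Rab27a in the ANXA2 knockout and the wild type, and only partly in the ANXA5 knockout. Endothelial markers (6 of 6 present) summed to 118 to 161, 138 to 202 and 126 to 156 CPM in the same groups. In the ANXA5 knockout 5 of these 6 lay above 0, with a median log2 fold change of 1.18, among them Cdh5 (1.55), Emcn (1.37), Egfl7 (1.23), Kdr (1.13) and Pecam1 (0.90), and Tek had -0.48 (limma adjusted p between 0.2297 and 0.342). Above 0 in that knockout were also 8 of 8 macrophage (median 0.40), 7 of 7 neutrophil (0.36), 6 of 7 osteoblast (0.65) and 5 of 6 megakaryocyte markers (0.24). For stromal markers the count was 6 of 11 (median 0.12) and for chondrocyte markers 2 of 5 (-0.02). The part of macrophages and endothelial cells in the differences of the members was not tested. None of the marker genes of any list passed the adjusted threshold in either knockout.

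**Figure D3:**
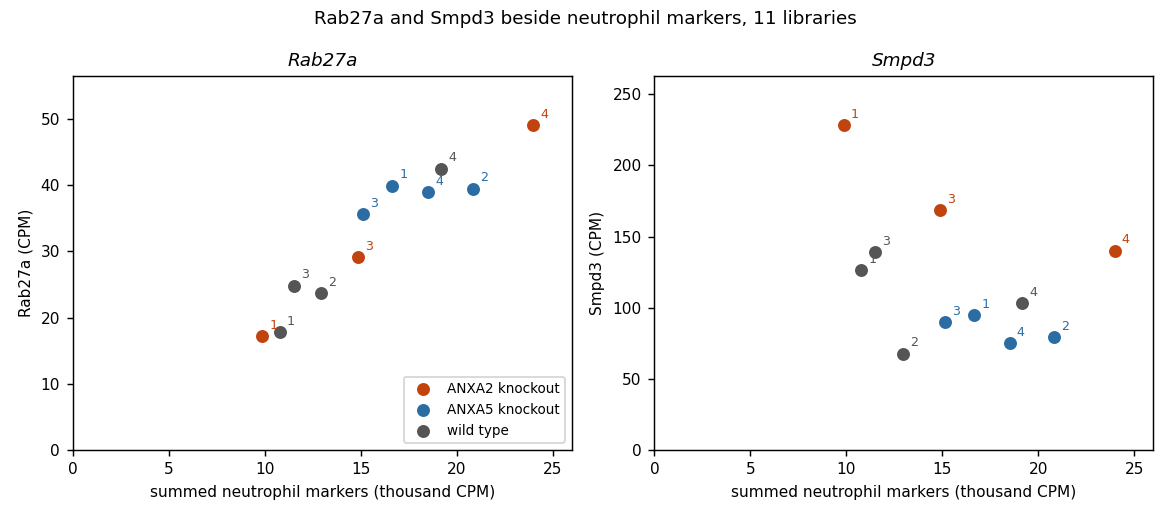
Rab27a (left) and Smpd3 (right) in CPM against the summed CPM of 7 neutrophil markers (x axis), with 1 numbered point per library for the ANXA2 knockout, the ANXA5 knockout and the wild type. Rab27a lies between 17.2 and 49.1 CPM, lowest and highest in the libraries with the lowest and highest marker sum. Its order within the ANXA5 knockout and the wild type is only partly that of the sum. The ANXA2 knockout libraries lie highest for Smpd3 at low, middle and high marker sums.

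Rab27b, the close relative of Rab27a, was scarce in all libraries. It stood at 156, 177 and 100.01 normalised reads in ANXA2 knockout libraries 1, 3 and 4, against 106, 132, 139 and 173 in the wild type (log2 0.05, SE 0.242, 95% interval -0.495 to 0.602, limma adjusted p = 0.959). Library 3 was above and library 4 below the whole wild type. In the ANXA5 knockout it stood at 141, 200.2, 197 and 199.8 normalised reads, against 116, 144, 153 and 189 in the wild type (log2 0.30, SE 0.181, 95% interval -0.105 to 0.701, limma adjusted p = 0.528). Libraries 2, 3 and 4 exceeded every wild type library and library 1 did not. Per length, Rab27a was 18.5 ± 14.9 times as abundant as Rab27b in the ANXA2 knockout (SD, n = 3), 16.9 ± 3.68 times in the ANXA5 knockout (n = 4) and 13.9 ± 2.54 times in the wild type (n = 4). Summed CPM of 6 megakaryocyte markers were 99.9, 135 and 86.4 in ANXA2 knockout libraries 1, 3 and 4, in the order of Rab27b. They were 81.5, 107, 99.1 and 115 in ANXA5 knockout libraries 1 to 4. In wild type libraries 1 to 4 they were 69.5, 59.6, 98.9 and 118. In these groups the order was only partly that of Rab27b. The part of megakaryocytes was not tested.

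Library 1 of the ANXA2 knockout often held the extreme value among the 9 genes. It had the highest value of its table's 7 libraries in 6 of them (Cd9, Cd63, Cd81, Cd151, Smpd3 and Sdcbp) and the lowest for Rab27a. The share of all genes highest in this library was not counted, and its neutrophil marker sum, 9855 CPM, was the lowest of all libraries. In library 1 the members deviated from the wild type mean by a median of 0.29 on the log2 scale, against 0.17 in library 3 and -0.05 in library 4. The medians of the ANXA5 knockout libraries were between -0.02 and 0.13. Over all 11 libraries the highest value exceeded the lowest by 3.38 times for Smpd3, 2.85 times for Rab27a and 2.08 times for Cd151, and by 1.40 to 1.84 times for the other 6 genes.

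**Figure D4:**
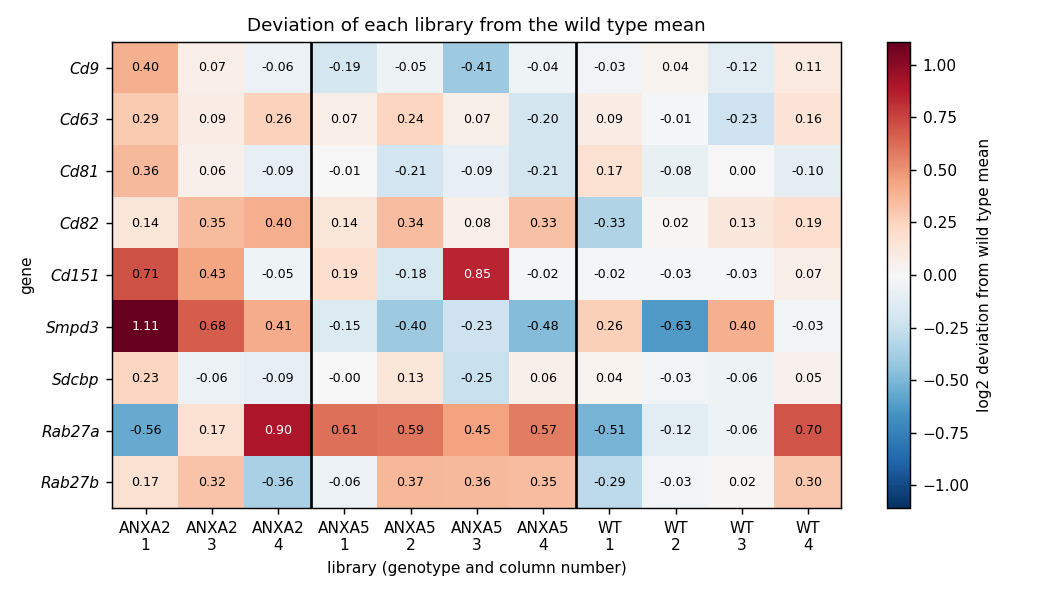
Log2 deviation of each of the 9 genes (rows) from its wild type mean in every library (columns: ANXA2 knockout 1, 3 and 4, ANXA5 knockout 1 to 4, wild type 1 to 4), in red where higher and blue where lower. Smpd3 is at 1.11, 0.68 and 0.41 in the ANXA2 knockout, and Rab27a is at 0.45 to 0.61 in the ANXA5 knockout but at 0.70 in wild type library 4.

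Across the 11 libraries, which share genotype groups and marrow cell content, some members varied together. The log2 CPM of Cd81 and Smpd3 correlated at a Pearson r of 0.81, Cd9 and Sdcbp at 0.78 and Cd82 and Rab27a at 0.68, while Cd81 and Rab27a ran in opposite ways at -0.79. Among 11797 genes with a mean of at least 100 reads, Rab27a was most alike to Gfi1 (r = 0.990), a transcription factor of neutrophil development, and Ncf1 (0.985), a subunit of the phagocyte NADPH oxidase. Smpd3 was most alike to Fam167a (0.958) and Olfml2b (0.940), and Cd82 to Gpr132 (0.958), a receptor of leukocytes, and Pitpnm1 (0.948). Cd9 was most alike to Epdr1 (0.942) and Mff (0.938), Cd63 to Acot13 (0.941) and Cisd1 (0.930), and Cd81 to Snrpn (0.969) and Tax1bp3 (0.967). The highest values were lower for Cd151, with Fzd4 (0.903) and Erc1 (0.899), and for Rab27b, with Cyp4b1 (0.873) and Mmrn1 (0.864). Sdcbp was most alike to Becn1 (0.935) and Mfsd1 (0.930). These are descriptions over 11 libraries.

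The wider machinery around the 9 genes was read from 146 further genes in 9 lists. limma called 0 of 141 tested list genes in the ANXA2 knockout and 0 of 140 in the ANXA5 knockout, and edgeR also called 0 in each. An unadjusted limma p under 0.05 was reached by 5 higher and 3 lower genes in the ANXA2 knockout (5.67%, against 8.69% of all genes) and by 7 higher and 8 lower in the ANXA5 knockout (10.7%, against 11.9%). In the direct comparison edgeR called 0 of 141, and 16 higher and 14 lower genes had an unadjusted p under 0.05 (21.3%, against 13.9%). The values that follow are thus from genes that did not pass the adjusted threshold.

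Of the 22 tested enzymes of sphingomyelin and ceramide metabolism, which share a pathway with Smpd3, 12 had a fold change above 0 in the ANXA2 knockout and 11 in the ANXA5 knockout, with medians of 0.02 and 0.01 on the log2 scale. The smallest p in the ANXA2 knockout was that of Sphk1, a sphingosine kinase, with a log2 fold change of 0.63 (95% interval 0.198 to 1.07, limma adjusted p = 0.518). In the ANXA5 knockout it was that of Acer2, a ceramidase, with 0.92 (95% interval 0.348 to 1.48, limma adjusted p = 0.273). Acer2 was scarce, at 0.315 ± 0.0825 RPKM in the wild type (SD, n = 4). Sgms2 and Cers6 followed in the ANXA2 knockout (log2 0.23 and 0.21), and Cers6 and Smpd2 in the ANXA5 knockout (0.37 and -0.23). Between the knockouts the log2 difference was 0.80 for Sphk1 (edgeR adjusted p = 0.180) and -0.93 for Acer2 (edgeR adjusted p = 0.177).

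The 13 effectors and regulators of RAB27 had a median log2 fold change of 0.25 in the ANXA2 knockout, with 9 above 0, and of 0.08 in the ANXA5 knockout, with 7 above 0. Mlph, the melanophilin that ties RAB27A to myosin, stood at 0.394 ± 0.104 RPKM (SD, n = 3) in the ANXA2 knockout against 0.214 ± 0.0127 (n = 4; log2 0.84, limma adjusted p = 0.476). Sytl2, a synaptotagmin-like effector that takes part in docking, had a log2 fold change of -0.33 in the ANXA2 knockout and -0.45 in the ANXA5 knockout, with 1.60 ± 0.250 RPKM in the ANXA5 knockout against 2.20 ± 0.398 (n = 4 each; limma adjusted p = 0.318). Tbc1d10b had 0.31 in the ANXA2 knockout, and Madd and Sytl1 had 0.51 and 0.36 in the ANXA5 knockout. Of 17 other Rab GTPases, 11 lay above 0 in the ANXA2 knockout and 7 in the ANXA5 knockout. Rab4a, which serves fast recycling of endosomes, stood at 4.30 ± 0.413 RPKM (n = 3) in the ANXA2 knockout against 6.29 ± 0.525 (n = 4; log2 -0.54, limma adjusted p = 0.446), and Rab3b and Rab35 had log2 fold changes of 0.84 and 0.78. The smallest p in the ANXA5 knockout belonged to Rab8a (0.12), Rab38 (0.28) and Rab10 (-0.12).

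Other tetraspanins had medians of -0.02 in the ANXA2 knockout (22 tested, 9 above 0) and -0.05 in the ANXA5 knockout (21 tested, 10 above 0). Tspan17, of the group that regulates the protease ADAM10, stood at 17.2 ± 0.649 RPKM in the ANXA5 knockout against 24.2 ± 3.55 (SD, n = 4 each; log2 -0.48, limma adjusted p = 0.217). Tspan14, of the same group, had 0.27 and Tspan7 0.81. In the ANXA2 knockout Tspan8 stood at 1.42 ± 0.564 RPKM (n = 3) against 2.32 ± 0.534 (n = 4; log2 -0.76, limma adjusted p = 0.571), and Tspan4 and Tspan11 had log2 fold changes of 0.36 and 0.27. Of 11 membrane partners, 7 lay above 0 in the ANXA2 knockout and 3 in the ANXA5 knockout. The smallest p belonged to the integrin genes Itga3 (0.69) and Itga7 (0.52) and the CD9 partner gene Igsf8 (0.24) in the ANXA2 knockout, and to Itga4 (0.39), Adam17 (-0.21) and Itga3 (0.43) in the ANXA5 knockout. Itga3 was scarce, at 0.358 ± 0.0543 RPKM in the wild type (SD, n = 4).

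The 11 genes of the syndecan, syntenin and ALIX route had a median of 0.12 in the ANXA2 knockout, with 8 above 0, and of -0.01 in the ANXA5 knockout, with 5 above 0. Sdc2, a syndecan, stood at 142 ± 6.83 RPKM in the ANXA5 knockout against 211 ± 39.9 (SD, n = 4 each; log2 -0.55, limma adjusted p = 0.230). Arf6, a GTPase that acts on syntenin vesicle budding, had a log2 fold change of 0.29 in the ANXA2 knockout (limma adjusted p = 0.565), beside Sdc3 (0.53) and Sdc4 (0.31), while Pld2 (-0.15) and Src (0.30) followed Sdc2 in the ANXA5 knockout. The 22 ESCRT subunits, which sort cargo and cut vesicles off, had medians of 0.04 in the ANXA2 knockout and -0.02 in the ANXA5 knockout, with Vps25 at 0.53 and 0.48. Vps25 was scarce, at 0.675 ± 0.128 RPKM in the wild type (SD, n = 4). Chmp2a (0.18) and Snf8 (0.23) were next in the ANXA2 knockout, and Chmp3 (-0.23) and Stam (-0.25) in the ANXA5 knockout. SNAREs and cortical factors of fusion had medians of 0.06 and -0.04, with Stx2 (0.19), Vamp8 (0.20) and Stx3 (0.19) in the ANXA2 knockout and Stx4a (-0.25), Stx6 (-0.18) and Vamp8 (0.24) in the ANXA5 knockout. Common vesicle cargo had medians of 0.14 and 0.10. Tfrc, the transferrin receptor, had a log2 fold change of -0.44 in the ANXA2 knockout (limma adjusted p = 0.555), beside Eno1 (0.28) and Mfge8 (0.24), and Eno1 (0.24), Lgals3bp (0.19) and Gapdh (0.18) had the smallest p in the ANXA5 knockout.

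**Figure D5:**
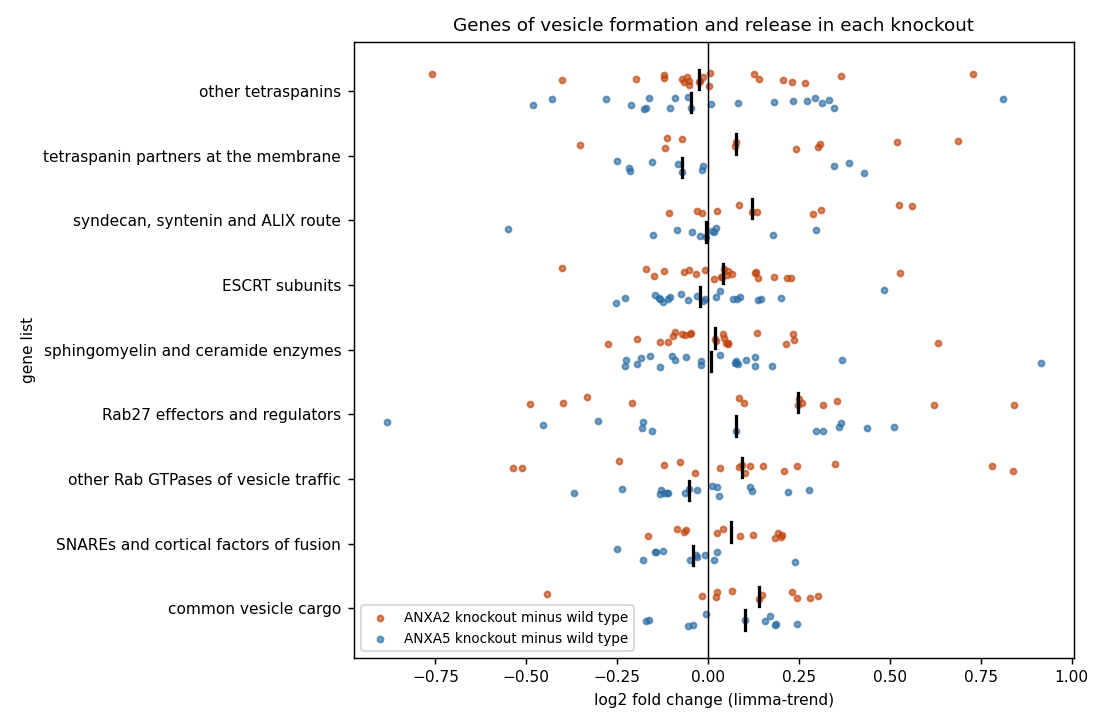
Log2 fold change against the wild type (x axis) of each tested gene of 9 lists around vesicle formation and release (y axis), with 1 point per gene, for the ANXA2 knockout (upper row of each list) and the ANXA5 knockout (lower row), and a black bar at each list's median. The medians lie between -0.02 and 0.25 in the ANXA2 knockout and between -0.07 and 0.10 in the ANXA5 knockout, and no gene shown passed the adjusted threshold.

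For the direct comparison, the 3 genes with the smallest p of each list are given, whether or not that p was under 0.05, so they are not the same as the 16 higher and 14 lower genes counted above. Higher in the ANXA2 knockout than in the ANXA5 knockout were Rab3b (log2 1.23, edgeR adjusted p = 0.161), Mlph (0.98, 0.219), Stx2 (0.31, 0.210), Cttn (0.35, 0.274) and Igsf8 (0.31, 0.315), none past the threshold. Lower were Itga4 (-0.73, edgeR adjusted p = 0.159), Rab4a (-0.44, 0.173), Tfrc (-0.62, 0.173), Tspan13 (-0.47, 0.224) and Tspan33 (-0.69, 0.236). Rab3b and Mlph were near the low end of expression, at 0.232 ± 0.0474 and 0.394 ± 0.104 RPKM in the ANXA2 knockout, against 0.0979 ± 0.0370 and 0.200 ± 0.0852 in the ANXA5 knockout (SD, n = 3 and 4). The log2 differences of the other genes chosen in this way lay above 0 for Itga7 (0.62), Sdc2 (0.52), Sdc4 (0.38), Mfge8 (0.30), Chmp4b (0.28), Tbc1d10a (0.27), Arf6 (0.26), Vamp2 (0.22), Flot1 (0.17) and Chmp1a (0.16). They lay below 0 for Rph3al (-0.79), Tspan8 (-0.77), Vps37b (-0.70), Rab9 (-0.29) and Sptlc2 (-0.19).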

How the data were processed

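The deposited tables, 1 per knockout with the same 4 wild type libraries, were used, and no raw reads. Per the submitters' processing notes, the tools were DESeq2, HTSeq, STAR and Trim Galore and the build was GRCm39; their versions and the strand setting are not given in the sources used. The signal the authors deposited for each gene and library was the read count divided by a size factor, and whole reads were recovered for 100% of values within 0.001. DESeq2 had also given the log2 fold change and both kinds of p-value that the authors deposited per gene; its test score, deposited with the opposite sign, was not used. The tables held 19259 (ANXA2) and 19801 (ANXA5) genes, and wild type reads were the same in 100% of shared genes. 0 sample columns were left out.

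Groups came from the labels. For each knockout, genes that reached a value of 10 in a number of libraries equal to the smaller group were tested two-sided by limma-trend after adding 1 and taking log2, with Benjamini-Hochberg adjustment over all tested genes and 0.05 as threshold. The knockouts were compared with edgeR's quasi-likelihood test on recovered reads with TMM scaling, and exact permutation tests over libraries were two-sided and unadjusted. RPKM is CPM after TMM scaling over exon length from GENCODE vM21 on GRCm38, not the submitters' build, known for 99.6% of shared genes. Alternatives were limma-voom, DESeq2, edgeR, TMM scaling, adding 0.5 or 5, a minimum of 50, no filter, Xist as a covariate, knockout libraries only, leaving out each library, a replicate block and, chosen after seeing the data, neutrophil markers as a covariate. For the direct comparison, only knockout libraries were left out in turn. Members and lists were chosen with earlier results of these data known. Besides the members, the rule named the 3 genes of each list with the smallest p and any called, and the 2 genes most alike to each member. The fits were tested on simulated data. R 4.3.3, limma 3.58.1, edgeR 4.0.16, DESeq2 1.42.0 and Python 3.11.15 were used.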

Additional observations from a re-analysis of the deposited data

Results flagged for a closer look

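Within groups of 4 libraries, 27 gene and group combinations of the 9 genes were examined for a library far from the others, by the gap to its nearest neighbour over the group's range, with the 95% limit of Dixon. Chance marks about 1 in 20 such groups, and 3 were marked. The wild type libraries count in both tables, so for each gene their combinations are not independent. Rab27a stood at 1015 normalised reads in ANXA5 knockout library 3, against 1134 to 1147 in the other ANXA5 knockout libraries (ratio 0.900). Rab27b stood at 141 normalised reads in ANXA5 knockout library 1, against 197 to 200.2 in the others (ratio 0.950). Cd151 stood at 649.5 normalised reads in wild type library 4 of the ANXA2 table, with libraries 1 to 3 at 606 to 613 (ratio 0.851). The same libraries were not marked in the ANXA5 table, where the ratio was 0.722.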

How the results depend on the processing

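The count of called members was 0 of 9 in each knockout under every alternative run, and also without each library in turn (0 to 0). In the direct comparison it was 0 by edgeR, 1 (Smpd3) by DESeq2, 1 (Smpd3) with the knockout libraries alone, and 0 to 0 without each knockout library in turn. No single wild type library was left out of that comparison. The cause of these differences was not tested. Over all genes the ANXA2 count was 18 by limma, 107 by DESeq2 and 284 with Xist as a covariate, and 8 to 16 without 1 library. The ANXA5 count was 5 by limma and 278 by DESeq2, and 4 to 32 without 1 library. The direct count was 44 by edgeR, 398 by DESeq2 and 66 with Xist as a covariate, and 19 to 37 without 1 knockout library. With the replicate block the ANXA5 knockout had 0 called members (smallest adjusted p = 0.364) and 8 called genes. Same-numbered libraries correlated at 0.05, -0.07, -0.25 and 0.07 in their deviations, so the numbers were not taken as pairs. No block was fitted for the ANXA2 knockout, whose column numbers are not those of the titles, or for the direct comparison.

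Small fold changes turned in sign under some settings, none of them past the threshold, and the cause was not tested. With the neutrophil covariate, Rab27a had -0.077 in the ANXA2 knockout, Cd63 -0.044 in the ANXA5 knockout and Cd151 -0.045 in the direct comparison. With Xist as a covariate, Sdcbp had 0.0032 in the ANXA5 knockout. Leaving out each library in turn, the ANXA2 log2 fold changes ran between -0.0034 (without knockout library 1) and 0.22 for Cd81, -0.067 (without knockout library 1) and 0.097 for Sdcbp, -0.19 (without knockout library 4) and 0.56 for Rab27a, and -0.11 (without knockout library 3) and 0.30 for Rab27b. Those of the ANXA5 knockout ran between -0.025 (without wild type library 3) and 0.12 for Cd63, and -0.061 and 0.069 (without knockout library 3) for Sdcbp. Direct differences, with only knockout libraries left out in turn, ran between -0.047 (without ANXA2 knockout library 1) and 0.40 for Cd151, -0.064 (without that library) and 0.097 for Sdcbp, and -0.73 and 0.024 (without that library) for Rab27a. At 100.01 to 200.2 normalised reads, Rab27b had the lowest depth of the members.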
